A study of Mus musculus with 6 samples.

Results

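Notch ligands, receptors and targets were followed in RNA sequencing libraries of isolated mouse peritoneal endothelial cells (ECs). The members were 10 genes chosen by symbol, with 1 row each among the 22183 genes of the count table: the receptors Notch1, Notch2 and Notch4, the ligands Dll1, Dll4, Jag1 and Jag2, and the target genes Hey1, Hey2 and Hes1. The samples were 3 saline mice and 3 PD mice, 1 library per mouse. All were wild-type male C57BL/6J mice aged 8 to 10 weeks. They received daily intraperitoneal injections of saline or of a high-glucose peritoneal dialysis (PD) fluid, Dianeal, for 6 weeks. The supplementary methods describe sorting of CD31+ CD45- cells from the digested mesentery, whereas the sample labels describe magnetic sorting on CD31 alone.

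Notch signalling passes between neighbouring cells. A Delta-like or Jagged ligand on one cell binds a Notch receptor on the next, the receptor is cut first by ADAM proteases and then by γ-secretase, and its intracellular part joins the DNA-binding protein RBPJ in the nucleus to switch on genes such as those of the Hes and Hey repressors. In growing vessels, Dll4 on tip cells signals to Notch1 on the stalk cells behind them and restrains sprouting, while Jag1 can counter Dll4. Notch4 is largely restricted to endothelium, and Notch2 is also used by blood cells, among them the marginal zone B cells of the spleen.

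The start regions of these genes were searched for the short sequence that RBPJ binds. RefSeq windows on GRCm38.p6, each from 250 bases before to 50 bases after a gene start, were matched for 8 of the 10 members, with 9 windows in all; Hey1 and Hes1 had no entry. The RBPJ core TGGGAA was searched on both strands. Hey2 was the only member with a match, holding 2 of them. Both also matched a longer form that contains the core, GTGGGAA. Of all 32851 windows of that length, 25.6% held the core and 6.38% the longer form. The Hey2 sequence is shown for these matches, given in capitals. Dll4 and Notch4 had the largest fold changes among ligands and receptors, and Notch2 was the member with a lower level. For these 3 genes the 150 bases before the RefSeq start are shown. All read 5′ to 3′ along the gene's strand. The Hey2 stretch is chr10:30842778-30843033 (minus strand), Dll4 is chr2:119325634-119325783 (plus), Notch4 is chr17:34564145-34564294 (plus) and Notch2 is chr3:98013388-98013537 (plus). RefSeq starts can differ from the GENCODE positions given further on. The Notch4 and Notch2 stretches end past the GENCODE starts, which are 34564268 and 98013527.
Hey2: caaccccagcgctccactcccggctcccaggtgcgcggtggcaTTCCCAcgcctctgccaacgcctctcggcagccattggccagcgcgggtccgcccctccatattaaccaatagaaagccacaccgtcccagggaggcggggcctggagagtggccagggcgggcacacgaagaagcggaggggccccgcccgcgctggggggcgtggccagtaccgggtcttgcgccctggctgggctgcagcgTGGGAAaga
Dll4: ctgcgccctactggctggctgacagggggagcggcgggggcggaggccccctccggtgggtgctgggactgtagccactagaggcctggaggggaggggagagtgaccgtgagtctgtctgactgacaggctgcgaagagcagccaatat
Notch4: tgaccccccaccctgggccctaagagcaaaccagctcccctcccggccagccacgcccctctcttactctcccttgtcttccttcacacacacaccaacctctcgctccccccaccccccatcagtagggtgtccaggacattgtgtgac
Notch2: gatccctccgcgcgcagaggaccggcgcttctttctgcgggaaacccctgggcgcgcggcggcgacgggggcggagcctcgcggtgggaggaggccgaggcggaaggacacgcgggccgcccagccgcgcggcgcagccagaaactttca
In Hey2, the first match began 207 bases before the RefSeq start, where the strand reads TTCCCA, and the second began 3 bases before it. A match describes letters in this window and is not evidence of binding.

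Gene counts totalled from 21973426 to 26374292 per mouse. Levels are given in CPM, a gene's count as a share of the library's total in units of 1e-06, after scaling by edgeR's TMM method. A positive log2 fold change means a higher level under PD fluid than under saline, each is given with its standard error (SE), and a gene was called where the edgeR quasi-likelihood test gave an adjusted p below 0.05. The libraries were not purely endothelial. Pecam1, which encodes CD31, was at 469 ± 19.4 CPM under saline and 514 ± 7.85 CPM under PD fluid, but Ptprc, which encodes CD45, was at 2373 ± 127 and 1473 ± 63.6 CPM, respectively (SD, n = 3 each). The summed level of 12 endothelial markers was 1124 to 1144 CPM under saline and 1788 to 1856 CPM under PD fluid, with 11 of the 12 higher. The 6 B cell markers summed to 5582 to 5891 CPM and to 2626 to 2641 CPM, respectively, and all 6 were lower. The 7 macrophage markers went from 1021 to 1046 CPM to 4194 to 4368 CPM, and all 7 were higher. The fibroblast markers, 6 genes, went from 78.6 to 83.2 CPM to 719 to 781 CPM, and the 9 pancreatic acinar markers from 4.30 to 10.01 CPM to 8573 to 12510 CPM, all higher. Markers of lymphatic endothelium, neutrophils and mesothelium were also higher wherever tested, whereas 3 of 7 T cell markers were lower. No marker was at or under 3 counts in every mouse, though Ly6g and Camp were in the saline mice. The part of these cells in the values of the Notch genes was not tested. In such mixed libraries, a change in the number of cells of a type and a change in RNA per cell cannot be told apart.

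Most of the Notch genes were higher in PD mice. Of the 10 members, 8 were called higher, 1 (Notch2) was called lower and 1 (Jag1) was not called. Over all 14005 tested genes, 31.1% were called higher and 27.8% lower. With scaling to endothelial markers, described further on, 2 members were called higher and 3 lower, against 1160 and 10116 of all tested genes. The other values of this paragraph are with TMM. The median log2 fold change was 1.09 over the members and 0.02 over all tested genes. The PD mice did not overlap with the saline mice in 9 of the 10 members, against 65.6% of all tested genes. All 10 members were tested, but Hey2 passed the filter on low counts through the PD mice, with 1 of 3 saline mice at the required level, so its call is partly fixed by the filter.

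**Figure D1:**
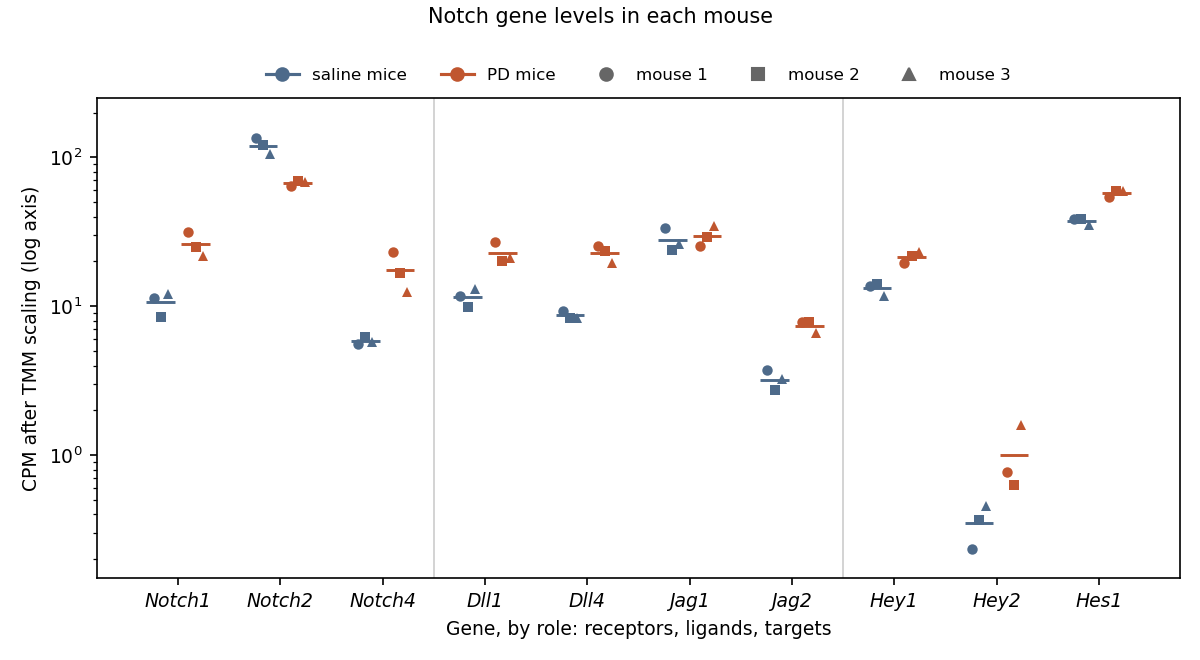
Level of each Notch gene in each mouse, in CPM after TMM scaling on a log axis, with a marker shape per mouse and a line at each group mean. The PD mice lie above the saline mice for 8 genes and below them for Notch2, and the groups overlap for Jag1.

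Among the receptors, Notch4 had the largest rise. Notch4 (ENSMUSG00000015468; chromosome 17 of GRCm38, 34564268 to 34588503) was at 5.58, 6.18 and 5.71 CPM in saline mice 1 to 3 and at 23.2, 16.8 and 12.5 CPM in PD mice 1 to 3. The saline mice were tightly grouped, and the lowest PD mouse was still above all of them. Its log2 fold change was 1.59 (SE 0.20, edgeR adjusted p = 7.1e-05), a 3.02-fold difference.

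Notch1, the main receptor for Dll4 in sprouting vessels (ENSMUSG00000026923; chromosome 2, 26457903 to 26516663), was at 11.3, 8.49 and 12.2 CPM under saline and at 31.4, 25.1 and 21.7 CPM under PD fluid. The groups did not overlap, and PD mouse 1 was again the highest. The log2 fold change was 1.29 (SE 0.17, edgeR adjusted p = 7.0e-05).

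Notch2 (ENSMUSG00000027878; chromosome 3, 98013527 to 98150361) moved the other way. It was at 134, 121 and 105 CPM under saline and at 64.3, 69.0 and 68.9 CPM under PD fluid, so that the PD mice were close together and all below the saline mice. The log2 fold change was -0.83 (SE 0.09, edgeR adjusted p = 1.9e-05), or 0.561 of the saline level. The 6 B cell markers were lower in the same mice, as given above, and their part in this difference was not tested.

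Of the ligands, Dll4 (ENSMUSG00000027314; chromosome 2, 119325784 to 119335962) was at 9.26, 8.39 and 8.41 CPM under saline and at 25.2, 23.6 and 19.5 CPM under PD fluid. Its groups were well apart, with a log2 fold change of 1.39 (SE 0.13, edgeR adjusted p = 5.6e-06), a 2.62-fold rise and the smallest adjusted p of the 10 members. Dll1, a Delta-like ligand also known from lymphoid tissue and somite formation (ENSMUSG00000014773; chromosome 17, 15367354 to 15376872), was at 11.7, 9.96 and 13.1 CPM under saline and at 27.0, 20.1 and 21.0 CPM under PD fluid. It rose by 0.97 on the log2 scale (SE 0.15, edgeR adjusted p = 0.00022).

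Jag2 (ENSMUSG00000002799; chromosome 12, 112907819 to 112929776), the lesser expressed Jagged ligand here, was at 3.71, 2.72 and 3.23 CPM under saline and at 7.87, 7.84 and 6.57 CPM under PD fluid. The lowest PD mouse was above the highest saline mouse, and the log2 fold change was 1.20 (SE 0.18, edgeR adjusted p = 0.00022). Jag1 (ENSMUSG00000027276; chromosome 2, 137081456 to 137116644) was at 33.7, 23.9 and 26.1 CPM under saline and at 25.5, 29.0 and 34.4 CPM under PD fluid. The groups overlapped throughout. Its log2 fold change was 0.08 with a 95% interval from -0.23 to 0.40 (edgeR adjusted p = 0.632), so a change of the size seen in Dll4 lay outside the interval. Without saline mouse 2 the value was -0.02, and without PD mouse 3 it was -0.03.

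All 3 target genes were called higher, by smaller amounts in the well-measured pair. Hes1, a basic helix-loop-helix repressor with many inputs besides Notch (ENSMUSG00000022528; chromosome 16, 30064384 to 30067796), was at 38.7, 38.8 and 35.0 CPM under saline and at 54.4, 59.6 and 59.8 CPM under PD fluid. The spread within each group was small, and the log2 fold change was 0.63 (SE 0.08, edgeR adjusted p = 7.3e-05). Hey1, a related repressor of arterial endothelium (ENSMUSG00000040289; chromosome 3, 8663359 to 8667256), was at 13.6, 14.2 and 11.7 CPM under saline and at 19.7, 21.8 and 23.1 CPM under PD fluid. It rose by 0.71 on the log2 scale (SE 0.12, edgeR adjusted p = 0.00043).

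Hey2, its close relative with the RBPJ core matches shown above (ENSMUSG00000019789; chromosome 10, 30832359 to 30842801), was barely detected. Its read counts were 6, 8 and 11 in saline mice and 21, 15 and 35 in PD mice, and PD mouse 3 stood above the others. The log2 fold change was 1.48 with a wide 95% interval from 0.38 to 2.57 (edgeR adjusted p = 0.025). The call was lost in DESeq2 (adjusted p = 0.0532) and without PD mouse 3, where edgeR gave 1.00 (adjusted p = 0.13), or without saline mouse 1, where it gave 1.25 (adjusted p = 0.0918).

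Levels of different genes were compared per length, with the FPKM values that the authors deposited. Hes1 was highest in both groups, at 25.4 ± 1.32 FPKM in saline mice and 39.5 ± 1.26 FPKM in PD mice (SD, n = 3 each). In saline mice Notch2 followed at 11.4 ± 1.35 FPKM (SD, n = 3), then Hey1, Jag1, Dll1, Dll4, Notch1, Notch4, Jag2 and Hey2, and the ranges over mice overlapped only between Hey1 and Jag1, between Notch1 and Notch4 and between Notch4 and Jag2 among neighbours in that order. Notch2 was thus the predominant receptor transcript in saline mice, against 1.12 ± 0.21 FPKM for Notch1 and 0.88 ± 0.04 FPKM for Notch4 (SD, n = 3 each). In PD mice Notch2 was at 6.43 ± 0.14 FPKM, Notch1 at 2.76 ± 0.60 FPKM and Notch4 at 2.68 ± 0.90 FPKM (SD, n = 3 each). The order there was Hes1, Hey1, Dll1, Notch2, Dll4, Jag1, Notch1, Notch4, Jag2 and Hey2. From Dll1 to Jag1 each neighbour overlapped with the next, as did Notch1 and Notch4.

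Ratios of genes within a mouse do not depend on how libraries are scaled. They were not corrected for GC content, which was 48.8% for Jag1 and 55.9% for Dll4. With the GC correction described further on, the log2 fold change was 0.05 for Jag1 and 1.14 for Dll4. The log2 ratio of Jag1 to Dll4 read counts was 1.86, 1.51 and 1.63 in saline mice and 0.02, 0.30 and 0.82 in PD mice, a difference of -1.29. Dll4 counts thus came close to those of Jag1 in PD mouse 1, and no PD mouse reached the lowest saline ratio. Read counts do not take gene length into account. Per length, Dll4 was above Jag1 in PD mice 1 and 2, at 6.94 and 6.32 against 4.69 and 5.18 FPKM. In PD mouse 3 it was below, at 5.09 against 5.99 FPKM. The log2 ratio of Notch2 to Notch1 was 3.57, 3.83 and 3.11 in saline mice and 1.03, 1.46 and 1.67 in PD mice, a difference of -2.12, again without overlap. Both ratios had p = 0.1 in a two-sided exact permutation test, which cannot go lower with 3 mice in each group, and an adjusted p of 0.186 (Benjamini-Hochberg, 13 ratios). The log2 ratio of Notch4 to Notch1 overlapped between the groups, at -0.85 ± 0.34 in saline mice and -0.60 ± 0.18 in PD mice (SD, n = 3 each; exact permutation p = 0.3, adjusted p = 0.355).

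**Figure D2:**
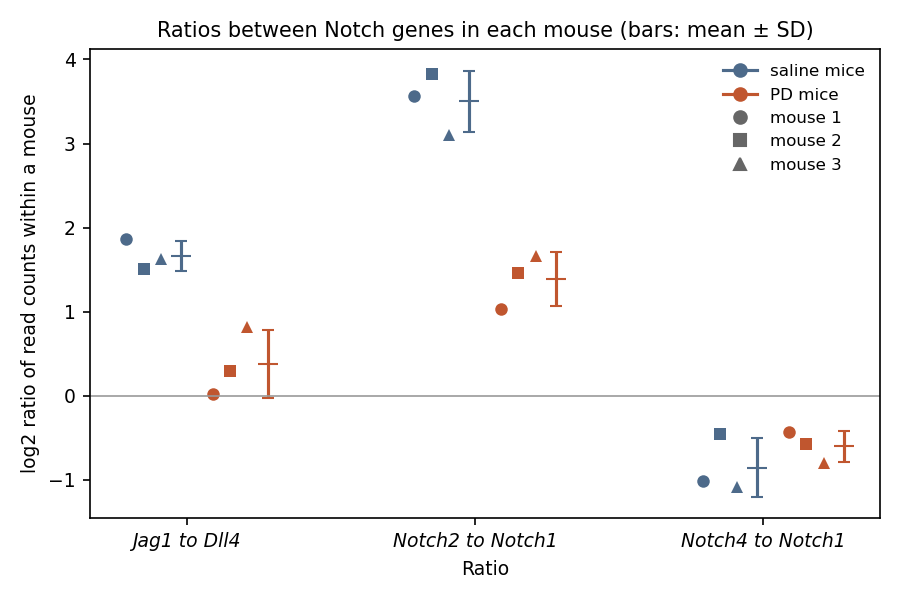
Log2 ratio of read counts between pairs of Notch genes in each mouse, with the mean and SD of each group beside the points. The Jag1 to Dll4 and Notch2 to Notch1 ratios are lower in each PD mouse than in any saline mouse, and the Notch4 to Notch1 ratios overlap.

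Since the endothelial markers also rose, the members were set against them. Scaling the libraries to the 12 endothelial markers moved the median of all tested genes by -0.98 on the log2 scale. With it, 2 members were called higher and 3 lower, against 1160 and 10116 of all tested genes. Dll4 (log2 fold change 0.41, edgeR adjusted p = 0.00873) and Notch4 (0.61, edgeR adjusted p = 0.00678) were the members still higher. The markers used as the scale were themselves spread with TMM, from 0.13 for Pecam1 to 1.65 for Tie1, and the TMM values of Dll4 (1.39) and Notch4 (1.59) lay within that range. Notch2 (-1.81, edgeR adjusted p = 3.87e-10), Jag1 (-0.88, edgeR adjusted p = 1.65e-05) and Hes1 (-0.35, edgeR adjusted p = 0.00566) were lower, so the direction of Hes1 was opposite to that with TMM. Notch1, at 0.31 (edgeR adjusted p = 0.0597), Jag2 and Hey2 kept a positive value without a call. Dll1 was at -0.01 and Hey1 at -0.27 (edgeR adjusted p = 0.0771). Within each mouse, the log2 ratio of Dll4 to the mean of these markers was -2.46, -2.50 and -2.59 in saline mice and -2.00, -2.05 and -2.28 in PD mice. All 3 PD mice were higher (exact permutation p = 0.1, adjusted p = 0.186 over 13 ratios). For Notch4 the ratio was -3.19, -2.94 and -3.14 in saline mice and -2.12, -2.54 and -2.92 in PD mice. PD mouse 3 was thus barely above saline mouse 2. The ratios of Notch2, Jag1 and Hes1 were lower in every PD mouse than in any saline mouse. These and Notch4 had the same p-values as Dll4 in that test. The ratios of the other members overlapped between the groups.

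**Figure D3:**
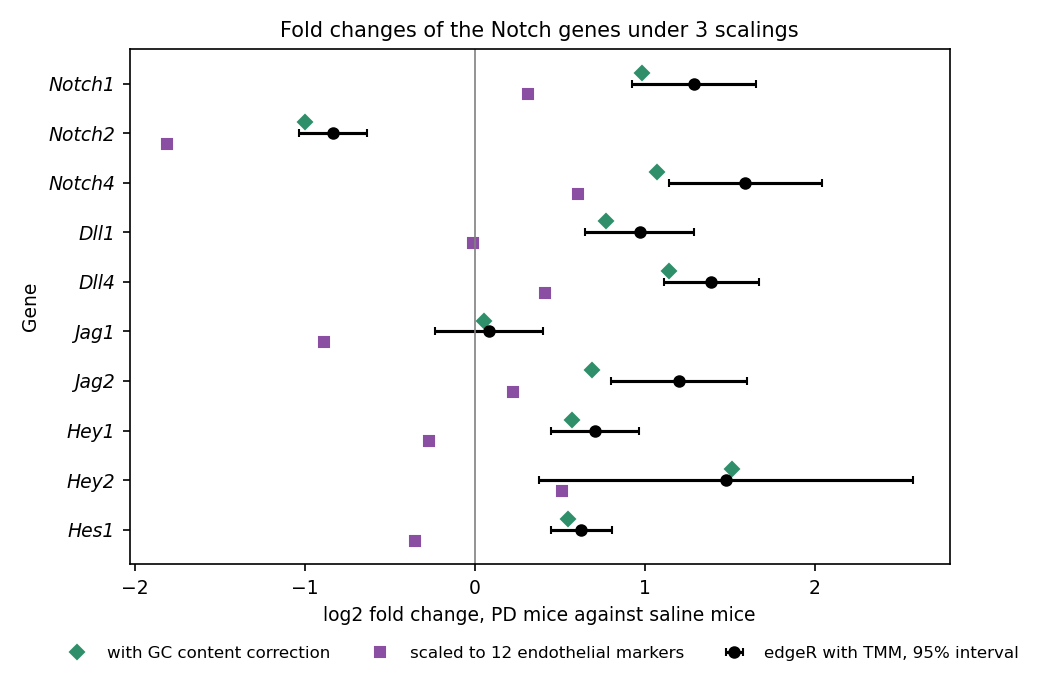
Log2 fold change of each Notch gene, PD mice against saline mice, with TMM scaling and its 95% interval (circles), with a correction for GC content (diamonds) and with scaling to 12 endothelial markers (squares). With the endothelial scaling, Dll1, Jag1, Hey1 and Hes1 lie at or below 0, whereas Notch4 and Dll4 stay above it and Notch2 lies furthest below.

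The members also varied among the PD mice. Notch1, Notch4, Dll1, Dll4 and Jag2 were highest in PD mouse 1, though Jag2 was nearly level with PD mouse 2. So were 7 of the 12 endothelial markers (58.3%) and 32.8% of all tested genes. For Notch4, log2(CPM + 1) differed by 0.84 between PD mouse 1 and PD mouse 3. The same 5 genes were those in the highest quartile of tested genes by GC content, with transcripts of 54.9% to 61.9% GC. In that quartile the median difference between PD mouse 1 and PD mouse 3 was 0.09, against -0.11 in the lowest quartile. The median log2 fold change of PD against saline mice also went from -0.17 in the lowest quartile to 0.33 in the highest. When GC content was corrected for in each library, an alternative added once the data had been seen, the 8 members called higher and Notch2 kept their calls. Notch4 was then at 1.07 (SE 0.18, edgeR adjusted p = 0.000289) and Dll4 at 1.14 (SE 0.12, edgeR adjusted p = 5.11e-06). Jag2 went from 1.20 to 0.69 (SE 0.17, edgeR adjusted p = 0.0038).

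**Figure D4:**
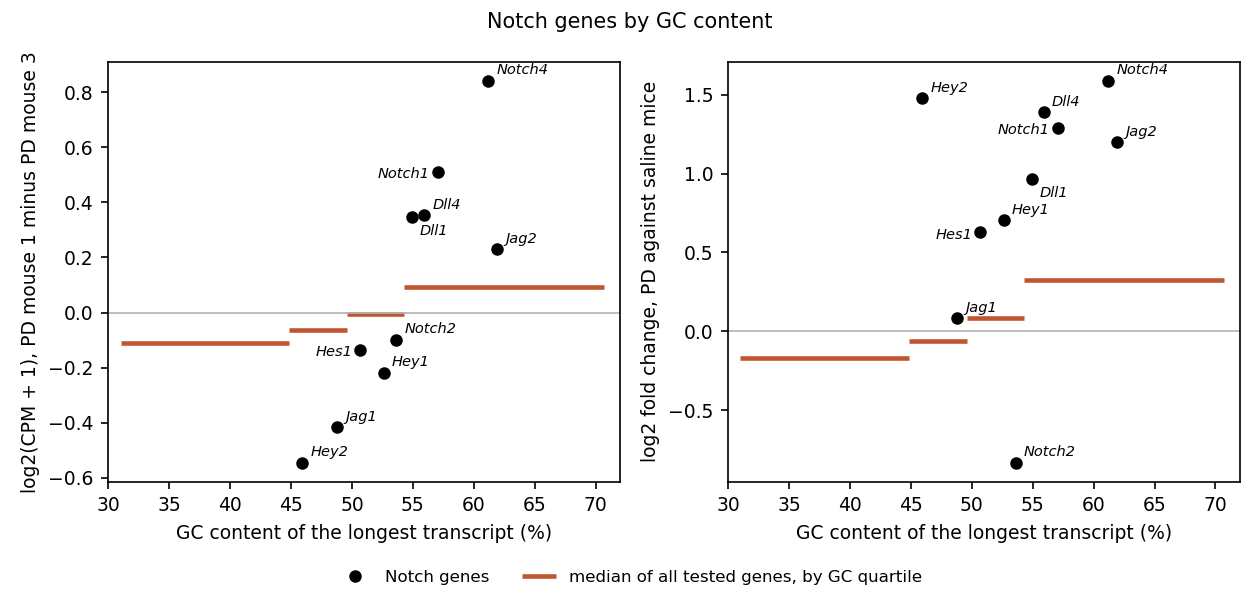
Notch genes by the GC content of their longest transcript, against the difference between PD mice 1 and 3 in log2(CPM + 1) (left) and the log2 fold change of PD against saline mice (right), with bars at the median of all tested genes in each GC quartile. The 5 genes of highest GC content are above 0 on the left, and all members but Notch2 are above 0 on the right.

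Other genes of the pathway were taken from 8 lists with 55 genes, of which 50 were tested. In PD mice, 21 were called higher and 10 lower, with a median log2 fold change of 0.14. Over all 14005 tested genes, 31.1% were called higher and 27.8% lower, and the counts of each list below stand beside these shares. With the endothelial scaling the pathway counts were 2 and 35, against 1160 and 10116 of all tested genes. With the GC correction they were 17 and 15, against 3931 and 4290. Dll3, Dlk1, Dlk2, Hes2 and Hes7 had too few counts to be tested. Notch3, the receptor of mural cells and the tested member of its list, rose from 1.42 ± 0.54 to 2.78 ± 0.03 CPM (SD, n = 3 each). Its log2 fold change was 0.96 (edgeR adjusted p = 0.0167), and neither the GC correction (0.55, adjusted p = 0.103) nor the fit without saline mouse 2 (0.71, adjusted p = 0.0512) kept the call. The 7 markers of pericytes and smooth muscle were all higher in PD mice as well, with a summed level of 275.6 to 296 CPM under saline and 437 to 484 CPM under PD fluid, and their part in the Notch3 value was not tested.

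Among genes that prepare receptors and ligands, changes were mixed. Of the 6 genes of receptor maturation, 2 were higher, Furin and Lfng. Furin, a protease that cuts the receptor during its maturation, had a log2 fold change of 1.36 (SE 0.30, edgeR adjusted p = 0.0024). Lfng, a Fringe that adds sugars favouring Delta-like over Jagged ligands, had one of 0.69 (SE 0.21, edgeR adjusted p = 0.016). The Lfng call was lost with the GC correction (0.31, adjusted p = 0.084) and without PD mouse 1 (0.53, adjusted p = 0.0766). Of 5 ubiquitin ligase genes for ligands, 2 were higher and 1 lower, which was Neurl3, from 140 ± 2.24 to 107 ± 3.32 CPM (SD, n = 3 each). Its log2 fold change was -0.39 (edgeR adjusted p = 0.00028). Of the higher genes, Neurl1a had read counts of 13, 4 and 9 in saline mice and 34, 43 and 22 in PD mice. Like Hey2, Neurl1a passed the filter on low counts through the PD mice, so its call is partly fixed by the filter.

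For receptor cleavage, 3 of 9 genes were higher and 2 lower. All 5 encode subunits of γ-secretase, the 3 higher genes its APH1 subunit. The lower genes, named after their values were seen, were Psen2, for a presenilin, the catalytic subunit (log2 fold change -0.26, edgeR adjusted p = 0.0076), and Psenen (-0.39, edgeR adjusted p = 0.00093). Both were more highly counted than the APH1 genes, Psen2 at 119.9 ± 2.10 and 100.03 ± 7.13 CPM and Psenen at 103 ± 6.499 and 78.6 ± 3.54 CPM under saline and PD fluid, respectively (SD, n = 3 each). Aph1c rose from 2.71 ± 0.19 to 7.99 ± 0.19 CPM and Aph1b from 5.73 ± 0.65 to 12.9 ± 0.86 CPM (SD, n = 3 each). Their log2 fold changes were 1.56 and 1.16 (edgeR adjusted p = 1.5e-05 and 4.6e-05). The pair are near-identical paralogs between which the counting could split reads. Aph1a had a log2 fold change of 0.45 (edgeR adjusted p = 0.012), which lost its call without PD mouse 1 (0.37, adjusted p = 0.0552).

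In the nuclear complex, 2 of 7 genes were lower and the others were not called. Rbpj itself, named outside the rule and after its values were seen, was at 60.7 CPM under saline and 66.4 CPM under PD fluid (edgeR adjusted p = 0.123). Maml2, a co-activator of the Mastermind family, fell from 42.9 ± 4.39 to 24.8 ± 3.35 CPM (SD, n = 3 each), a log2 fold change of -0.79 (edgeR adjusted p = 0.00016). Snw1, which also acts in splicing, had one of -0.32 (edgeR adjusted p = 0.0021). Of 7 co-repressor genes, 3 were higher and 3 lower. Tle1 had a log2 fold change of 0.69 (edgeR adjusted p = 0.00034) and the histone demethylase Kdm5a one of -0.62 (edgeR adjusted p = 1.5e-05).

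Of 8 genes of receptor trafficking and degradation, 5 were higher and the others were not called. Numbl, a relative of the Notch antagonist Numb, had a log2 fold change of 2.27 (SE 0.40, edgeR adjusted p = 0.00067) from a low level of 0.44 ± 0.24 CPM (SD, n = 3). Its read counts in saline mice were 12, 4 and 16, so it passed the filter on low counts with the help of the PD mice. The Deltex genes Dtx2 and Dtx3 had log2 fold changes of 0.89 (edgeR adjusted p = 0.0056) and 0.73 (edgeR adjusted p = 0.0022).

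On the list of other target genes, which also holds relatives of Hes1, 5 of the 7 tested were higher and 2 lower. Whether each is a target of Notch in these cells was not tested. Efnb2, the arterial ephrin ligand, rose from 4.74 ± 1.01 to 9.91 ± 1.92 CPM (SD, n = 3 each; log2 fold change 1.06, edgeR adjusted p = 0.00096). Heyl, a Hey relative of mural cells, rose by 1.08 on the log2 scale (SE 0.28, edgeR adjusted p = 0.0064), and Unc5b, a netrin receptor of endothelium, by 1.39 (SE 0.42, edgeR adjusted p = 0.015). The Unc5b call was lost without saline mouse 1 and without PD mouse 1 or 3, with adjusted p from 0.0562 to 0.0659. Unc5b had read counts of 13, 9 and 21 in saline mice and also passed the filter with the help of the PD mice. Outside the rule for named genes, Nrarp, which limits Notch activity and is itself a Notch target, was picked after its values were seen. It was at 15.1 ± 2.52 CPM under saline and 29.2 ± 3.31 CPM under PD fluid (SD, n = 3 each; log2 fold change 0.95, edgeR adjusted p = 0.00017). The 2 lower genes, also named after seeing their values, were Hes6, a Hes relative that opposes Hes1 (-0.59, edgeR adjusted p = 4.8e-05), and the scarcely detected Hes5 (-1.24, edgeR adjusted p = 0.029). The Hes5 call was lost in DESeq2 and without saline mouse 1 or 3 or PD mouse 1 or 2, with adjusted p from 0.0579 to 0.118. Hes5 had read counts of 12, 7 and 19 in PD mice and passed the filter with the help of the saline mice. With the endothelial scaling, the higher calls of Efnb2 (0.09, edgeR adjusted p = 0.685), Heyl (0.10, edgeR adjusted p = 0.754) and Unc5b (0.42, edgeR adjusted p = 0.37) were lost, and Nrarp was at -0.03.

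Over the named pathway genes called higher with TMM, Aph1c (0.58, edgeR adjusted p = 0.00804) and Numbl (1.31, edgeR adjusted p = 0.00796) were still called higher with the endothelial scaling. Furin (0.39, edgeR adjusted p = 0.139) and Aph1b (0.19, edgeR adjusted p = 0.262) also lost their calls. Lfng, Dtx2, Dtx3 and Notch3 were below 0 without a call, whereas Aph1a (-0.52, edgeR adjusted p = 0.00154) and Tle1 (-0.29, edgeR adjusted p = 0.0266) were called lower.

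Likeness to other genes was measured as the root mean square distance between log2 CPM profiles, each centred on its mean over the 6 mice, which fall into the same 2 treatment groups for every gene. The nearest genes to Dll4 were Sh3bp4 and Ndrg1 (distances 0.041 and 0.045), and those to Notch1 were Ddit4 and Jup (0.065 and 0.067). For Notch4 they were Col12a1 and Cyp11a1, at the larger distances of 0.13 and 0.14. Notch2 was nearest to Igkv19-93 and Nsmce1 (0.035 and 0.061). Hes1 was nearest to Atp6v1a and Aif1 (0.019 and 0.025), and Hey1 to Laptm4b and Id2 (0.037 and 0.039). The nearest to Dll1 were Slc27a4 and Nacc2 (0.054 and 0.062), those to Jag2 were Dnajb2 and Tnfrsf1b (0.039 and 0.040), those to Jag1 were AI854703 and Tcf7l2 (0.062 and 0.073), and those to Hey2 were Radx and Angpt4 (0.11 and 0.22).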

How the data were processed

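RNA was sequenced from peritoneal ECs of 3 saline and 3 PD mice, grouped by sample title. The authors deposited read counts per gene without normalization, and FPKM values (per length and depth). The submitters' processing notes name fastp, Bowtie2, HISAT2, StringTie and RSEM. The genome build is not given in the sources used here. Gene positions are those of GENCODE M21 on GRCm38, matched by Ensembl identifier. The deposited group means, log2 ratio, p-value and FDR columns hold the authors' own comparison and were not used.

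Counts were filtered with edgeR's filterByExpr (minimum count 10), scaled by TMM and tested with edgeR 4.0.16 in R 4.3.3, by the quasi-likelihood test without covariates, with Benjamini-Hochberg adjustment over 14005 genes and a threshold of 0.05. The paper's methods name limma, which was run as limma-voom (limma 3.58.1). Standard errors were derived from the F statistic. Within-mouse ratios used count + 0.5. GC content was that of the longest GENCODE transcript. Replicates differed by more than sampling noise, and each was 1 mouse. Precision is limited by 3 mice per group. The scripts were tested on simulated data.

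The members, gene lists and tests were chosen with earlier results of these data known. Named were all members and, per pathway list, up to 3 called genes of at least 1 mean CPM without overlap between groups, by size of change. The values of 1 gene that this rule names are not reported here. The alternatives were DESeq2 1.42.0, limma-voom, limma on log2(FPKM + 0.1) and log2(FPKM + 1), other filters and scalings, a replicate block, a fold threshold and leaving out each mouse; a GC correction was added after seeing the data.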

Additional observations from a re-analysis of the deposited data

How the results depend on the processing

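With scaling to the 12 endothelial markers, 2 members were higher and 3 lower, 2 other pathway genes were higher and 35 lower, and 1160 of all genes were higher and 10116 lower. Of the called genes, 10.3% were then higher, against 52.9% with TMM. Log2 fold changes then turned below 0 for Dll1 (-0.0077), Jag1 (-0.88), Hey1 (-0.27), Hes1 (-0.35), Notch3 (-0.012), Lfng (-0.285), Aph1a (-0.52), Tle1 (-0.29), Dtx2 (-0.081), Dtx3 (-0.25) and Nrarp (-0.025), and the cause was not tested. With a log2 fold change of at least 1 required, 5 members were higher and 0 lower, since Notch2 lies at -0.83. The counts were then 8 and 1 for other pathway genes and 2158 and 252 for all genes. With each mouse left out in turn, Jag1 lay between -0.031 and 0.25, the log2 ratio of Dll1 to the endothelial markers changed by -0.12 to 0.069 and that of Hey2 by -0.012 to 0.66. Between 7 and 8 members were called higher and 1 lower in these fits, and 7 were also called higher by DESeq2 and with a minimum mean of 1 CPM, since Hey2 lost its call or was not tested.

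Deviations from the group mean had correlations of 0.19, 0.07 and -0.27 between same-numbered mice. Between differently numbered mice of the 2 groups they ranged from -0.41 to 0.36. With 3 mice per group, these values cannot decide whether the numbers pair anything. With the replicate number as a block, 8 members were higher and 1 lower, and 4242 and 3667 of all genes. CPM divided by gene length was not run, since no gene length column was used.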
